A study of Homo sapiens with 4 samples.

Results

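Aminoacyl-tRNA synthetases, the enzymes that join each amino acid to its tRNA, were examined in the human myeloma cell line MM.1S after treatment with MLN4924. The members were 36 listed genes for cytoplasmic and mitochondrial enzymes, and 33 of them had a probe set annotated to that gene alone. All 33 counted as measured, among 12446 measured genes of 19775 in the series. MARS1, QARS1 and TARS2 shared their probe sets with a second gene symbol and were given no value. The groups were cells with the vehicle DMSO, labelled control, and cells with 250 nM MLN4924 for 8, 16 or 24 h, with 1 expression array each. MLN4924 blocks the NEDD8-activating enzyme, which cullin-RING ubiquitin ligases need for activity. No other agent or genotype was named, and how long the control was cultured was not labelled.

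Nuclear genes encode both sets of synthetases. One set charges tRNAs for translation in the cytoplasm, and the other works inside mitochondria. GARS1 and KARS1 supply both compartments and were counted here with the cytoplasmic enzymes. When charged tRNA runs short, the kinase GCN2 (gene EIF2AK4) phosphorylates eIF2-alpha, translation of the transcription factor ATF4 rises, and ATF4 switches on genes of amino acid supply, among them many cytoplasmic synthetase genes. Plasma cells and myeloma cells secrete large amounts of antibody chains and depend on a steady supply of charged tRNA.

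With 1 array per group there was no test and no replicate error, so each difference compares a single pair of arrays. Technical spread was approximated from genes with 2 or more measured probe sets. On the log2 scale the differences of such probe sets from control had an SD within genes of 0.16, 0.19 and 0.18 for 8, 16 and 24 h, which leaves out the spread between cultures. The median intensity of the 4 arrays ran from 92.2 to 95.4, and the ratio of the 3' to the 5' GAPDH probe set from 1.18 to 1.21. The same ratio for ACTB was higher and less even. Its lowest value was 1.95 (8 h array) and its highest 2.21 (control), with 1.99 (24 h) and 2.14 (16 h) between them. Whether this unevenness plays a part in the differences between arrays was not tested. On the 16 h array 62 genes were lower by at least 0.5 (log2) than on both the 8 h and the 24 h arrays, and 0 synthetase genes were among them. All 8 plasma cell markers were measured, with a summed intensity of 41910 at 8 h and 46758 to 46938 on the other arrays. The markers of stromal, T and NK, and myeloid cells summed to 423.5 to 514 on every array. HBB, a globin gene, was the 1 measured erythroid marker, at 995 to 1219.

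The cytoplasmic enzymes stood near the control level at 8 h and lower at 16 and 24 h. By the probe sets used, most mitochondrial enzymes were also below the control at the late times, but by less at the median. Below 0 at 16 h were 14 of 18 cytoplasmic (77.8%) and 10 of 15 mitochondrial enzymes (66.7%), against 45.7% of all measured genes. At 24 h 15 of 18 (83.3%) and 11 of 15 (73.3%) were, against 47.4%. The mitochondrial result at 16 h depended on the probe sets. With the median over all probe sets of a gene, 5 of 14 mitochondrial enzymes were below 0 at 16 h, with a group median of 0.022. The 18 cytoplasmic enzymes had median log2 differences of 0.016, -0.19 and -0.20 after 8, 16 and 24 h. The 15 mitochondrial enzymes had medians of -0.027, -0.068 and -0.057, and all measured genes had medians of 0.0071, 0.026 and 0.016. The gap between the compartments was thus 0.042, -0.12 and -0.14. The compartments also differed in signal level. Control intensities ran from 361 (TARS3) to 4344 (EPRS1) for cytoplasmic enzymes and from 162 (PARS2) to 2281 (IARS2) for mitochondrial ones. The part of signal level in the gap was not tested. The 3 comparisons share the control array.

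Most synthetase genes were below the control late in the treatment, but few by much. At 16 h 24 of 33 were below 0, a share of 72.7%, where 45.7% of all measured genes were. At 24 h the count was 26 of 33, or 78.8%, against 47.4%, and at 8 h 18 of 33 against 48.3%. A limit of 0.32 on the log2 scale was set for larger differences. Lower by at least that much were 4 of 33 at 16 h, a share of 12.1%, against a background of 10.1%, and 4 of 33 at 24 h, against 9.94%, and at 8 h 1 of 33, against 6.15%. Those shares are near or under the background. Of the synthetase genes 0 were at least 2-fold lower at any time, where 0.121%, 0.289% and 0.193% of all genes were at 8, 16 and 24 h, and 0 were at least 2-fold higher, where 0.129%, 0.386% and 0.514% were. At 16 h WARS1 was the 1 gene at least 1.5-fold lower, against a background of 2.73%.

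**Figure D1:**
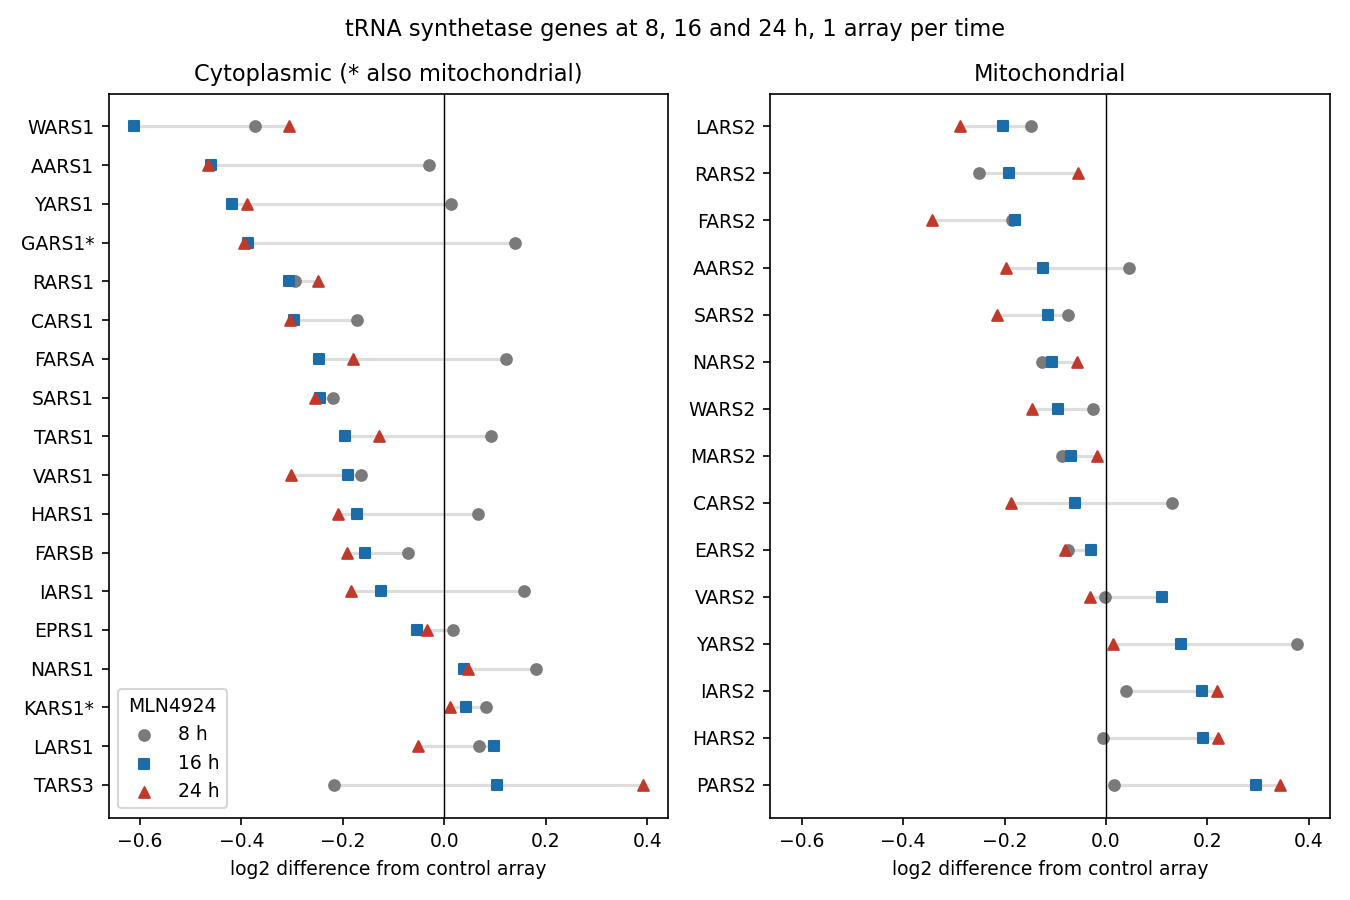
Log2 difference of each measured synthetase gene from the control array (x axis) after 8 h (grey circles), 16 h (blue squares) and 24 h (red triangles) of MLN4924, with 1 array per time; cytoplasmic enzymes are on the left and mitochondrial ones on the right, ordered by the 16 h value. At 16 h 14 of 18 cytoplasmic and 10 of 15 mitochondrial genes lay left of 0, and WARS1 lay farthest, at -0.61.

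The step from 8 h to 16 h, which does not use the control array, separated the compartments most by count. Of the 18 cytoplasmic enzymes 16 were lower at 16 h than at 8 h, a share of 88.9%, and of the 15 mitochondrial enzymes 6 were, or 40%. Among all measured genes the share was 47.1%. The cytoplasmic median of this step was -0.13 and the mitochondrial median 0.018. With each array centred on its median, the cytoplasmic count stayed at 16 of 18 with a median of -0.16, and the mitochondrial one became 9 of 15 with a median of -0.0092. GARS1 (-0.53), YARS1 (-0.43), AARS1 (-0.43) and FARSA (-0.37) were lower by at least 0.32, which makes 4 of 33 members against a background of 7.99%. The second measured probe set of FARSA fell less, from 627 at 8 h to 575 at 16 h, so its place among the 4 depended on the probe set. From 16 to 24 h the cytoplasmic median was -0.0064 and the mitochondrial median -0.052, and 19 of 33 genes were lower against a background of 54.5%.

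**Figure D2:**
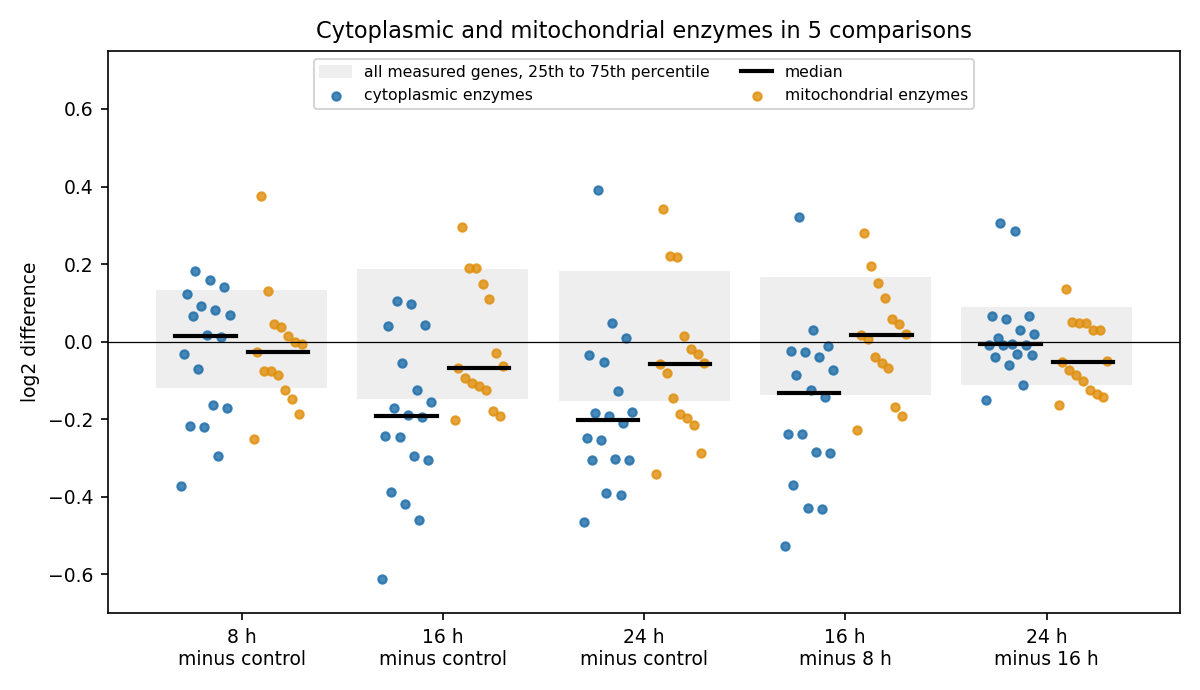
Log2 differences (y axis) of cytoplasmic (blue) and mitochondrial (orange) enzymes in 5 comparisons between arrays (x axis), each point 1 gene, with black bars at the medians and grey bands from the 25th to the 75th percentile of all measured genes. The cytoplasmic median lies at -0.19 and -0.20 at 16 and 24 h against control and at -0.13 from 8 to 16 h, and the mitochondrial medians lie between -0.068 and 0.018 in those comparisons, with the arrays not centred.

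Among the cytoplasmic enzymes AARS1, GARS1 and YARS1 shared a time course of little difference at 8 h and a lower, level value afterwards. AARS1, the alanine enzyme on chromosome 16, had intensities of 2609 in the control, 2554 at 8 h, 1897 at 16 h and 1890 at 24 h. That is 1.38-fold lower than the control at both late times (log2 -0.46 and -0.47). GARS1, the glycine enzyme on chromosome 7, stood at 3719, 4099, 2844 and 2829. The highest array was that of 8 h, and the late arrays were 1.31-fold below the control (-0.39 and -0.39). YARS1, the tyrosine enzyme on chromosome 1, stood at 2254, 2274, 1686 and 1721, and was 1.34-fold lower at 16 h (-0.42) and 1.31-fold lower at 24 h (-0.39). A second measured probe set of YARS1 gave 0, -0.37 and -0.23 at the 3 times. AARS1 and GARS1 had 1 probe set each.

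WARS1, the tryptophan enzyme on chromosome 14, had another time course and the largest difference of the members. Its intensities were 466 in the control, 360 at 8 h, 305 at 16 h and 377 at 24 h, so it was lower on all treated arrays and lowest at 16 h. The log2 differences were -0.37, -0.61 and -0.31, and the 16 h array was 1.53-fold below the control. Its second probe set stood at -0.55, -0.61 and -0.47. WARS1 is also known as a gene that interferon-gamma induces. Of the 8 measured genes of a list of interferon targets 6 were below 0 at 8 h, 3 at 16 h and 1 at 24 h, against backgrounds of 48.3%, 45.7% and 47.4%, with medians of -0.050, 0.13 and 0.16. In that list the chemokine gene CXCL10 stood at -0.49, 1.13 and 0.57, the ubiquitin-like protein gene ISG15 at -0.49, 0.078 and 0.30, and GBP1, a GTPase, at 0.17, 0.39 and 0.093. The 3 measured probe sets of GBP1 ran from 0.11 to 0.39 at 16 h and from -0.19 to 0.093 at 24 h.

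**Figure D3:**
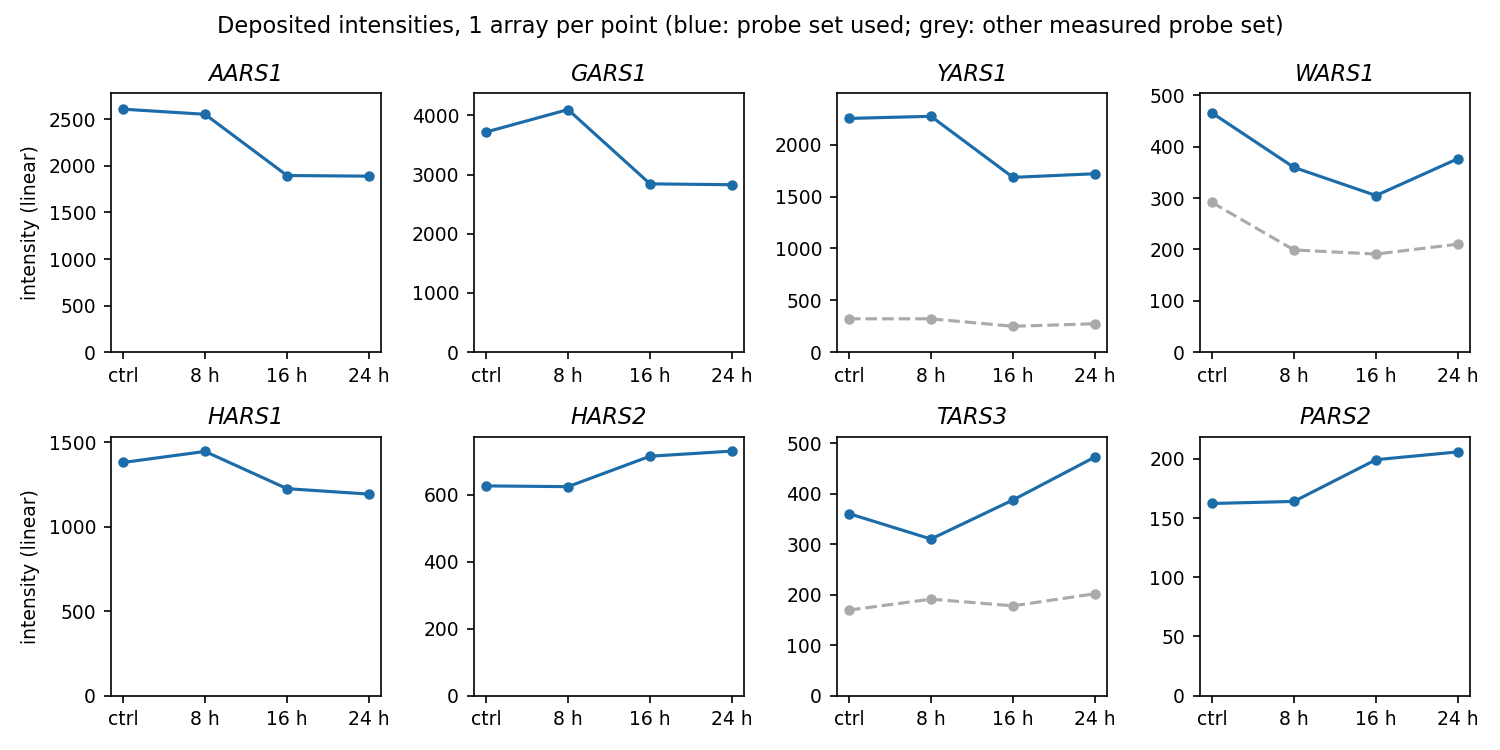
Deposited intensity (y axis, linear, from 0) of 8 synthetase genes on the control, 8 h, 16 h and 24 h arrays (x axis), 1 array per point; blue lines show the probe set used and grey dashed lines another measured probe set of the gene. AARS1, GARS1 and YARS1 step down between 8 and 16 h, WARS1 is lowest at 16 h (305), and HARS2, TARS3 and PARS2 are highest at 24 h (731, 473 and 206).

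RARS1, CARS1, SARS1 and VARS1, for arginine, cysteine, serine and valine, were below the control on each treated array. RARS1 had intensities of 1518, 1238, 1228 and 1278, with differences of -0.29, -0.31 and -0.25. CARS1 stood at -0.17, -0.30 and -0.30, and its 2 other measured probe sets at -0.0038 and -0.27 at 8 h, -0.31 and -0.23 at 16 h, and -0.24 and -0.32 at 24 h. SARS1 stood at -0.22, -0.24 and -0.25, but its dimmer second probe set was slightly above 0 each time (0.024, 0.076 and 0.017). VARS1 stood at -0.16, -0.19 and -0.30, while its second probe set stood at 0.20, 0.028 and 0.17. The direction of SARS1 and VARS1 therefore depended on the probe set.

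FARSA and FARSB encode the alpha and beta subunits of the cytoplasmic phenylalanine enzyme. FARSA stood at 0.12, -0.25 and -0.18, and FARSB at -0.072, -0.16 and -0.19. The second measured probe sets were at -0.20 and -0.18 for FARSA and -0.36 and -0.23 for FARSB at 16 and 24 h, below 0 like the first. At 8 h the second probe set of FARSA stood at -0.078, so the sign of FARSA at that time depended on the probe set. TARS1, for threonine, stood at 0.092, -0.19 and -0.13, HARS1, for histidine, at 0.067, -0.17 and -0.21, and IARS1, for isoleucine, at 0.16, -0.13 and -0.18. Each of these was above the control at 8 h and below it later.

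By the probe sets used, EPRS1, KARS1, NARS1 and LARS1 stayed within 0.19 of the control on all treated arrays. EPRS1, a fused enzyme for glutamate and proline, stood at 0.018, -0.055 and -0.035, with another probe set at -0.23 and -0.25 at the late times. KARS1, for lysine, stood at 0.082, 0.042 and 0.010, and its second probe set at -0.043, -0.078 and -0.12, so its sign depended on the probe set. NARS1, for asparagine, had intensities of 4060, 4603, 4172 and 4196, above the control each time (0.18, 0.039 and 0.048). LARS1, for leucine, stood at 0.068, 0.098 and -0.052, and 2 of its 3 other probe sets were below 0 at 16 h (-0.13 and -0.043).

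EPRS1, IARS1, KARS1, LARS1 and RARS1 belong to the multi-synthetase complex, in which several cytoplasmic synthetases are held together by scaffold proteins. MARS1 and QARS1, also listed for the complex, had no value. By the probe sets used, the 5 measured enzymes had medians of 0.068, -0.055 and -0.052. Of these 5, 0 were lower by at least 0.32 at any time, against backgrounds of 6.15%, 10.1% and 9.94%. Other measured probe sets of EPRS1, KARS1 and LARS1 stood lower at 16 h than those used, while outside the complex they went both ways. The 13 cytoplasmic enzymes outside the complex had medians of -0.031, -0.24 and -0.25. AIMP1, a scaffold of the complex, stood at -0.054, -0.16 and -0.027, and its measured probe sets ran from -0.47 to -0.16 at 16 h. The scaffold genes AIMP2 and EEF1E1 were not analysed here.

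TARS3, a second threonine enzyme of the cytoplasm, went the other way from most cytoplasmic members at 24 h. Its intensities were 361 in the control, 310 at 8 h, 388 at 16 h and 473 at 24 h, for differences of -0.22, 0.10 and 0.39. It was the 1 cytoplasmic enzyme higher by at least 0.32 at any time. The second probe set stood at 0.17, 0.070 and 0.25, so the sign at 8 h depended on the probe set.

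The known ATF4-linked enzymes were compared with the other cytoplasmic ones. The 11 measured genes of this list (AARS1, CARS1, EPRS1, GARS1, IARS1, LARS1, NARS1, SARS1, TARS1, WARS1 and YARS1) had medians of 0.018, -0.24 and -0.25, and 10 of 11 were below 0 at 24 h. The other 7 (FARSA, FARSB, HARS1, KARS1, RARS1, TARS3 and VARS1) had medians of -0.072, -0.17 and -0.19, and 5 of 7 were below 0 at 24 h, where the background was 47.4%. All 4 genes lower by at least 0.32 at 16 h (WARS1, AARS1, YARS1 and GARS1) were in the ATF4-linked list, which makes 4 of 11 against a background of 10.1%. In the step from 8 to 16 h the medians were -0.24 and -0.040.

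ATF4 binds composite sites whose core reads TGATGNAA, so the synthetase promoters were searched for those letters on both strands. RefSeq promoter windows of assembly GRCh38.p14, from 250 bases before to 50 after the start of a gene, matched 30 of the 36 members. AARS2, LARS1, TARS3, VARS1, VARS2 and YARS1 were not among them. The core was in the windows of 8 of these 30 genes (26.7%), 7 of 16 cytoplasmic and 1 of 14 mitochondrial, where 4.46% of all genes with a window and 3.62% of all windows held it. A match of letters is a description and does not show binding. The 8 matches follow as 30 bases each, 5′ to 3′ on the strand where the core reads as written, with the core in capitals, to let the sites be compared.

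AARS1: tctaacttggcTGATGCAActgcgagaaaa
GARS1: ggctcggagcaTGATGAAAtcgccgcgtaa
CARS1: ttcctagaatcTGATGCAAccgccgccccg
TARS1: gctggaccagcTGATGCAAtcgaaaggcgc
IARS1: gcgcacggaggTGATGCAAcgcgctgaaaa
NARS1: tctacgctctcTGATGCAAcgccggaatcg
MARS1: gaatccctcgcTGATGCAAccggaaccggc
YARS2: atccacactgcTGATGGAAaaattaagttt

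The windows are at chr16:70289675-70289704 for AARS1 (plus strand as printed), chr7:30594834-30594863 for GARS1 (minus), chr11:3057407-3057436 for CARS1 (plus), chr5:33440956-33440985 for TARS1 (minus) and chr9:92293692-92293721 for IARS1 (plus). Those of NARS1, MARS1 and YARS2 are at chr18:57621804-57621833 (minus), chr12:57488053-57488082 (minus) and chr12:32756076-32756105 (minus). Counted from 0 at the start of the gene, the match began at -4 in MARS1, -2 in CARS1, 2 in TARS1, -13 in IARS1, 14 in NARS1 and -33 in GARS1, where TARS1 and GARS1 are counted from a second annotated start. It lay farther off in AARS1 (-187) and YARS2 (-197). In 6 of the 8 the core read TGATGCAA, with TGATGAAA in GARS1 and TGATGGAA in YARS2.

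The 7 of these genes with values had medians of 0.14 at 8 h, -0.19 at 16 h and -0.18 at 24 h. In the step from 8 to 16 h all 7 were lower, by 0.12 to 0.53 on the log2 scale. So were 12 of the 20 other members with a promoter window, where 47.1% of all measured genes were. Those 20 were mostly mitochondrial. Without the core, 8 of 8 cytoplasmic enzymes were lower in this step and 4 of 12 mitochondrial ones. The cytoplasmic enzymes with and without the core thus shared a direction, but not a range of sizes. With the core the step ran from -0.53 (GARS1) to -0.12 (CARS1), and without it from -0.37 (FARSA) to -0.011 (RARS1). Whether the core matters was not tested. The 7 include NARS1, which stayed above the control, and YARS2, a mitochondrial enzyme. The 250 bases before the start are shown for 2 of them, AARS1, which had the lowest 24 h value of the members, and IARS1, whose window also held the E-box CACGTG that MYC and related factors bind. Both are on the minus strand, at chr16:70289507-70289756 and chr9:92293698-92293947. Capitals mark the ATF core, which reads TTGCATCA on this strand, and in IARS1 the E-box, which does not overlap it.

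AARS1: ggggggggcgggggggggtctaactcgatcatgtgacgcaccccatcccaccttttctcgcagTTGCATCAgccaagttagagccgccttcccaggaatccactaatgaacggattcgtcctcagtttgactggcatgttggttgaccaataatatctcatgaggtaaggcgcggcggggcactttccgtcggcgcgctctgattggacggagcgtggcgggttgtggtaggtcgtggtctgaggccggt
IARS1: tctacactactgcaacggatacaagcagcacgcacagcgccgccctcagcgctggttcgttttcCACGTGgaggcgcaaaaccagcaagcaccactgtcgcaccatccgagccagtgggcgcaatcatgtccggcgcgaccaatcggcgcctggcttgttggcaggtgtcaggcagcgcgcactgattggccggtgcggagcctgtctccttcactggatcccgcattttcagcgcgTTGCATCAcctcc

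The mitochondrial enzymes included lower and higher genes. By the probe sets used, LARS2, FARS2, AARS2, SARS2 and WARS2 were below the control at both late times. FARS2, for phenylalanine, had intensities of 295, 259, 260 and 232 and was the 1 mitochondrial gene lower by at least 0.32 at any time (-0.34 at 24 h). Its second measured probe set stood at 0.048 at 16 h and -0.086 at 24 h. LARS2, for leucine, stood at -0.15, -0.20 and -0.29, and its second probe set at -0.14, -0.20 and -0.19. AARS2 stood at 0.044, -0.12 and -0.20, with a second probe set at 0.0069 and -0.20 at the late times. SARS2 stood at -0.075, -0.11 and -0.22, and WARS2 at -0.027, -0.094 and -0.15, although a second probe set of WARS2 was at 0.14 and 0.040 at the late times.

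PARS2, HARS2, IARS2 and YARS2, for proline, histidine, isoleucine and tyrosine, were above the control at 16 and 24 h. PARS2 had intensities of 162 and 164 on the control and 8 h arrays and 199 and 206 on the late arrays, for late differences of 0.30 and 0.34. HARS2 stood at 627, 625, 716 and 731 (0.19 and 0.22 late), and IARS2 at 2281, 2343, 2600 and 2656 (0.19 and 0.22). In these 3 genes both late arrays were above both early ones. YARS2 was instead highest at 8 h, with 695, 902, 770 and 702, and its 8 h difference of 0.38 was the 1 above 0.32 at that time among the members, against a background of 5.67%. At 24 h PARS2 and TARS3 were the 2 members higher by at least 0.32, against 11.4%, and at 16 h there were 0, against 11.4%. Each of these 4 mitochondrial genes had 1 probe set.

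Among the remaining mitochondrial enzymes, CARS2 and RARS2 had differences of up to 0.25 in size. RARS2 stood at -0.25, -0.19 and -0.055, and its second measured probe set at -0.15, -0.19 and -0.030. CARS2 stood at 0.13, -0.062 and -0.19. Its 2 other measured probe sets, both dimmer, stood at 0.10 and 0.0093 at 16 h and at 0.17 and 0.012 at 24 h. NARS2 stood at -0.13, -0.11 and -0.057, MARS2 at -0.086, -0.068 and -0.019, EARS2 at -0.075, -0.029 and -0.081, and VARS2 at -0.0014, 0.11 and -0.032. Other measured probe sets of EARS2 stood at 0.10, 0.064 and -0.017 at 16 h, and at -0.0081, 0.084 and -0.14 at 24 h. The late sign of EARS2 thus depended on the probe set.

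Enzymes for the same amino acid were set side by side in 13 pairs, where FARS2 stands against both FARSA and FARSB. The cytoplasmic gene had the lower difference in 7 pairs at 8 h, 10 at 16 h and 9 at 24 h, with median gaps of -0.045, -0.23 and -0.16. The gap at 16 h was -0.57 for tyrosine, -0.52 for tryptophan and -0.36 for histidine, and it was 0.30 for leucine and 0.15 for asparagine, where the mitochondrial gene was lower. In the step from 8 to 16 h the cytoplasmic gene had the lower value in 10 of 13 pairs.

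**Figure D4:**
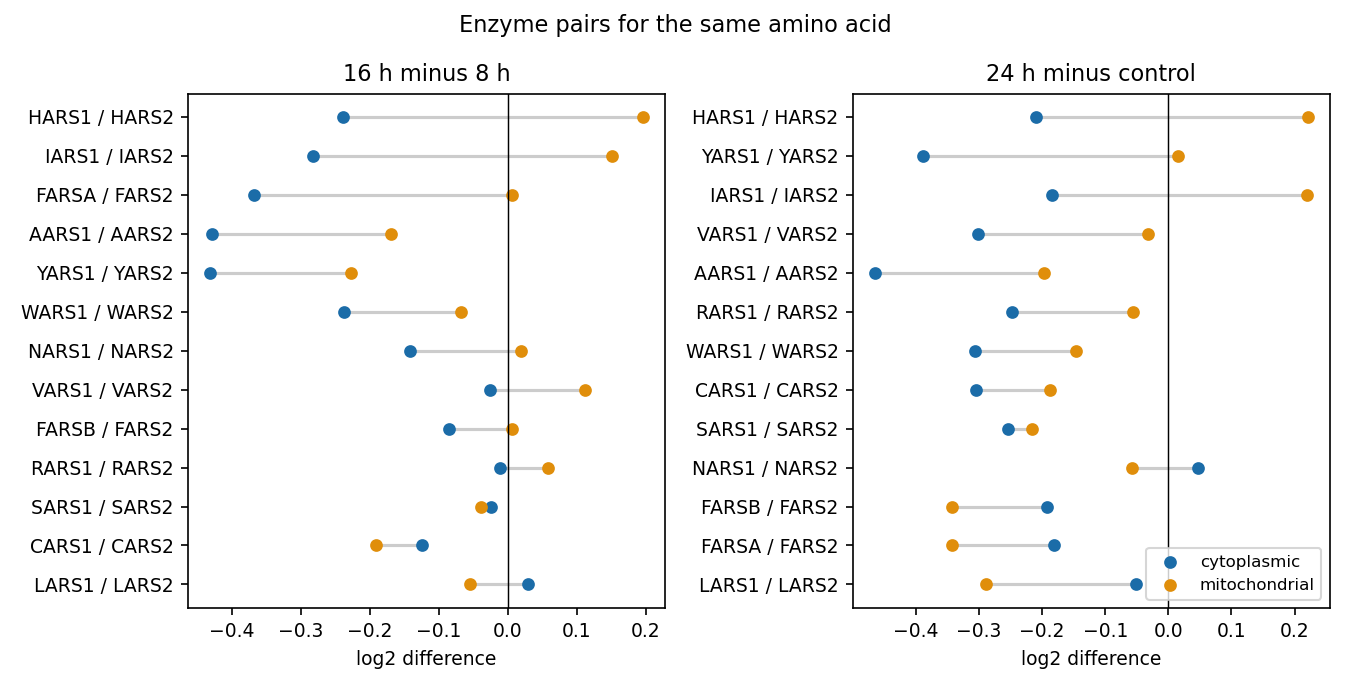
Log2 differences (x axis) of the cytoplasmic (blue) and the mitochondrial (orange) enzyme for the same amino acid, in 13 pairs ordered by their gap, from 8 to 16 h (left) and from control to 24 h (right), with 1 array per time. In the step from 8 to 16 h the cytoplasmic gene is the lower in 10 of 13 pairs, and HARS1 and HARS2 lie on opposite sides of 0 in both panels.

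HARS1 and HARS2 lie head to head on chromosome 5. Their annotated starts are 85 bases apart, at 140691370 on the minus and 140691455 on the plus strand (GRCh38.p14), and their promoter windows share 184 bases. HARS1 had intensities of 1380, 1446, 1225 and 1193. The late arrays were below the early ones for HARS1 and above them for HARS2, and the gap between the genes was -0.36 at 16 h and -0.43 at 24 h. Each gene had 1 probe set.

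The 2 structural classes of synthetase, which differ in the fold of the catalytic domain, were also set side by side. The 16 measured class I enzymes had medians of -0.051, -0.11 and -0.17, with 12 below 0 at 16 h and 14 at 24 h. The 16 class II enzymes had medians of 0.0052, -0.14 and -0.19, with 11 below 0 at 16 h and 11 at 24 h. Among all measured genes 45.7% were below 0 at 16 h and 47.4% at 24 h. EPRS1 holds a domain of each class and was in neither list.

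Agreement between probe sets showed how far the sign of a single gene depended on the probe set. It leaves out the spread between arrays and between cultures. Of the 18 members with 2 or more measured probe sets, all probe sets had the same sign in 9 at 8 h, 9 at 16 h and 12 at 24 h. Those shares of 50%, 50% and 66.7% compare with 54.9%, 60.4% and 61.2% of the 5719 genes of this kind.

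The response to uncharged tRNA, the pathway that ATF4 serves, had 18 measured genes of 20 listed. Its medians were -0.045, -0.22 and -0.29, and 13 genes were below 0 at 8 h, 14 at 16 h and 15 at 24 h, against backgrounds of 48.3%, 45.7% and 47.4%. Lower by at least 0.32 were 0 at 8 h, 4 at 16 h (22.2%) and 8 at 24 h (44.4%), where the backgrounds were 6.15%, 10.1% and 9.94%. ALDH1L2, a mitochondrial folate enzyme, had intensities of 198 in the control and 79.7 at 16 h, the latter near the lower end of measured signal, and stood at -0.26, -1.31 and -1.06. PSAT1, of serine synthesis, stood at -0.019, -0.57 and -0.77. EIF2AK4, the GCN2 kinase itself, stood at 0.22, 1.27 and 1.17, but its other measured probe set was far lower, so its late values ran from 0.067 to 1.27 at 16 h and from 0.20 to 1.17 at 24 h.

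Other genes that act on tRNA or its charging were mixed. Of 5 measured genes in a list of mitochondrial tRNA partners, TRNT1 was lower by at least 0.32 at 16 and 24 h (-0.56 and -0.36). Its probe sets lay between -0.56 and -0.39 at 16 h. TRNT1 adds the CCA end to tRNAs, a step that is not charging itself. Its intensity was 159 in the control and 108 at 16 h, not far above the limit of 93.9. GATB, GATC and QRSL1, which make the amidotransferase for mitochondrial glutamine tRNA, and MTFMT, the formyltransferase of the initiator tRNA, were within 0.15 of the control by the probe sets used. Over its measured probe sets QRSL1 ran from -0.33 to 0.32 at 16 h and from 0.044 to 0.45 at 24 h, and the second probe set of GATB stood at 0.29, 0.31 and 0.19. Of 5 measured editing and selenocysteine genes DTD1, a deacylase that removes D-amino acids from tRNA, stood at -0.21, -0.53 and -0.42. SEPSECS, which makes selenocysteine on its tRNA, stood at -0.36, -0.14 and 0.13, and PSTK, which acts one step before it, at 0.085, -0.046 and 0.22.

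Elongation factors, which deliver charged tRNA to the ribosome, were above the control in 5 of 6 genes at 8 and 24 h and 4 of 6 at 16 h, with medians of 0.071, 0.10 and 0.081. Above 0 were 51.7%, 52.6% and 54.3% of all measured genes at 8, 24 and 16 h. TUFM, the mitochondrial elongation factor Tu, stood at 0.13, 0.43 and 0.38, but its second measured probe set was at -0.042 and -0.13 at the late times. EEF2, the cytoplasmic translocation factor, stood at 0.093, 0.25 and 0.20, and TSFM, the exchange factor of TUFM, at 0.20, 0.11 and 0.058, with a second probe set at 0.017, -0.13 and -0.069.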

How the data were processed

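Affymetrix arrays were probed with biotinylated cRNA from total RNA of MM.1S cells, per the labels' protocols. The values deposited by the authors are linear intensities; how the probes were summarised, background-corrected and normalized is not given in the sources used here. Of 54675 probe sets, 41097 had 1 gene symbol in the platform annotation, 1801 several and 11777 none listed. Intensities under 48.4, their 25th percentile, were set to it before taking log2. Each gene was represented by its single-symbol probe set with the highest mean, and counted as measured when that mean exceeded the median of all probe sets (an intensity of 93.9). No synthetase gene was at the floor. Differences were taken between arrays, with no test. Genes were counted past a log2 difference of 0.32, past 1.5-fold and past 2-fold, and the share over all measured genes is the background.

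Every member was named, and of other lists mainly the 3 measured genes with the largest difference (all in lists of 5 or fewer). ATF4 and SHMT2, CEBPB and others outside that rule are in the counts alone. The members and lists were chosen with earlier results of these data known, and ATF4-linked enzymes come from general knowledge. Alternatives changed the probe set choice, floor, filter and normalization. The counting of genes past a fold was checked on simulated data. Python 3.11.15, numpy 2.4.6 and pandas 2.3.3 were used.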

Additional observations from a re-analysis of the deposited data

Results flagged for a closer look

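TARS3, the second cytoplasmic threonine enzyme, had opposite signs at 2 times, each larger than the SD between probe sets of a gene. It stood at -0.22 at 8 h and 0.39 at 24 h against the control. The difference between the times was not tested, since each time had 1 array and both share the control array. The second measured probe set was above the control at both times (0.17 and 0.25).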

How the results depend on the processing

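With 1 array per group no array could be left out, and the number of arrays limits the precision. Among the medians and counts, 307 of 333 values under alternatives stayed within 0.05 (log2), or within 1.5 times for counts. Many of these could not have changed, so that share is no measure of stability. No synthetase gene was at the floor and all 33 passed the filter, so removing either repeated the main values. Leaving out cytoplasmic genes kept the mitochondrial values as they were, and centring each array could not move the gap between compartments. The mitochondrial median at 16 h changed sign to 0.022 when the probe sets of each gene were summarised by their median, with 5 of 14 genes below 0, and the gap between compartments was -0.19. That setting also takes in dim probe sets. Without probe sets named _x_at and _s_at, which left 12 cytoplasmic genes, the cytoplasmic median was -0.25 at 16 h and -0.19 from 8 to 16 h, the gap at 16 h -0.18, 9 genes were below 0 at 16 h and 9 at 24 h, and 2 synthetases were lower by 0.32 or more at 24 h. With a filter at the 75th percentile, which left 10 mitochondrial genes, 6, 6 and 7 were below 0 at 8, 16 and 24 h. At 24 h 1 synthetase was higher by 0.32 or more under that filter, under the median over probe sets and under quantile normalization. Leaving out the ATF4-linked enzymes, a choice made after seeing the data, left 7 cytoplasmic genes, with 4, 5 and 5 below 0 and 6 lower at 16 h than at 8 h. Their median was -0.072 at 8 h and -0.040 from 8 to 16 h, the gap at 8 h was -0.045, and 0, 0 and 1 synthetases were lower by 0.32 or more at 8, 16 and 24 h, with 0 past 1.5-fold at 16 h. No member value past 0.32 in size changed sign under any alternative, but many could not have. AARS1, GARS1, PARS2 and YARS2 had 1 probe set each, so the choice of probe set could not change their sign. The floor could not act on any member.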

Other observations

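E-box and NRF1 letters were also searched in the 30 promoter windows, on both strands. CACGTG was in 4 genes (13.3%), 1 cytoplasmic (IARS1) and 3 mitochondrial (MARS2, CARS2 and EARS2), where 8.77% of all genes with a window held it. The core of the site bound by NRF1, a regulator of nuclear genes for mitochondrial proteins, was in 1 gene (MARS2), against 1.52% of all genes. In MARS2 the match begins at -27 and its E-box at -11 from the start, without overlap, and MARS2 stood within 0.1 of the control on every treated array.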
